A study of Mus musculus with 3 samples.

Results

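The data describe where Ptbp2 HITS-CLIP reads from mouse testis lay on the transcripts of the polypyrimidine tract-binding protein family itself, the 3 genes Ptbp2, Ptbp1 and Ptbp3. In HITS-CLIP, RNA is crosslinked to protein by ultraviolet light, 1 protein is purified, and the short RNA pieces attached to it are sequenced. Reads belonged to a gene when they lay wholly inside a window of the mm9 genome set from the gene's position, on the strand of the gene. For Ptbp2 (gene ID 56195) this was the minus strand at chr3:119400000-119500000, for Ptbp1 (gene ID 19205) the plus strand at chr10:79316000-79328500, and for Ptbp3 (gene ID 230257, also named Rod1) the minus strand at chr4:59480000-59570000. The windows held 913, 39 and 174 such reads, in all 1126 of the 1727697 reads of the file. Reads on the other strand of each window gave the background. Windows were not drawn from the reads, but genes and windows were chosen with earlier results of these data known.

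Ptbp2, also called nPTB or brPTB, is an RNA-binding protein that contacts pyrimidine-rich RNA and represses or promotes the use of nearby exons, and it is found at high levels in brain and testis. Ptbp1 is its widely expressed relative, and Ptbp3 is a further member described mostly in blood cells. The family is known for regulating its own messages. Ptbp1 protein promotes skipping of an exon in the Ptbp1 and Ptbp2 pre-mRNAs, and the skipped forms are degraded by nonsense-mediated decay.

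All reads came from whole testes of male CD1 mice that were 8 weeks old and carried no stated genetic change or treatment. There was 1 group with 3 libraries, 1 for each animal, and no input, control or other-tissue library was analysed here. The 3 display colours of the file were taken as the 3 libraries, and which animal each colour came from is not given. Values are therefore reported by colour class without an SD and no test between animals was made. The red class held 493620 reads, the green class 952096 and the blue class 281981. A testis holds many cell types, so more cells of a type and more of a transcript per cell cannot be told apart. Without an input library, abundance of a transcript and its recovery with Ptbp2 cannot be told apart either.

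The Ptbp2 transcript was the most densely read of the 3 in every colour class. Its window held 248 red, 488 green and 177 blue reads, or an RPKM of 5.02, 5.13 and 6.28 (reads per kb of window and per 1000000 reads of the class). Ptbp1 held 9 red, 22 green and 8 blue reads, which made an RPKM of 1.46, 1.85 and 2.27. Ptbp3 held 50 red, 93 green and 31 blue reads, and its RPKM values of 1.13, 1.09 and 1.22 were the most even over the classes. No class value of Ptbp2 overlapped one of the other genes, and those of Ptbp1 all lay above those of Ptbp3.

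Over all classes Ptbp2 had 9.13 reads per kb (95% Poisson interval for its 913 reads 855 to 974). This density was 4.72-fold that of Ptbp3 (95% exact interval 4.01 to 5.59) and 2.93-fold that of Ptbp1 (2.12 to 4.14). By class the ratio of Ptbp2 to Ptbp3 ran from 4.46 in red to 5.14 in blue. The ratio of Ptbp1 to Ptbp3 was 1.61 (1.11 to 2.29), and in red and in blue its interval included 1, so the order of those neighbours is not settled at this depth. These ratios depend on the window lengths, which exceed the span of the reads to differing degrees. Per kb of that span, a measure chosen after the data were seen, Ptbp2 had 10.7 reads, Ptbp1 4.37 and Ptbp3 2.19. Intervals cover counting error only and treat reads as independent. Copies of 1 molecule are not independent, so the intervals may be too narrow.

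**Figure D1:**
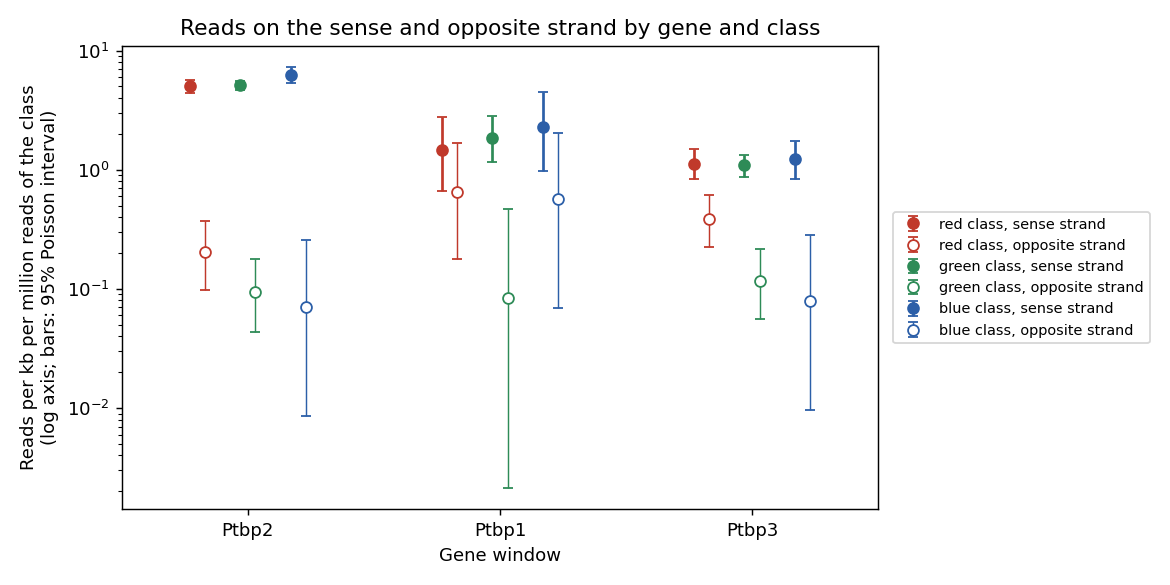
RPKM within the colour class (log axis) for the windows of Ptbp2, Ptbp1 and Ptbp3, with 1 point per class, filled for the sense strand and open for the opposite strand, and bars for the 95% Poisson interval. Filled points of Ptbp2 lie at 5.02 to 6.28, above those of Ptbp1 at 1.46 to 2.27 and Ptbp3 at 1.09 to 1.22.

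Each window was set beside the file as a whole. The autosomes and the X chromosome were cut into tiles of the same length on each strand, and the tiles with at least 1 read were counted. Of 43910 such tiles of 100 kb, 44 held at least the 913 reads of Ptbp2, which is 0.100%. The Ptbp2 window is itself 1 of these 44 tiles. The median tile held 8 reads and the 99th percentile was 415 reads. By class, 0.184% of tiles reached the Ptbp2 count in red, 0.141% in green and 0.0908% in blue. Ptbp3 stood lower, as 4.84% of the tiles of 90 kb held at least its 174 reads. Ptbp1, in a shorter window, was matched or passed by 6.58% of the tiles of 12.5 kb. When only tiles with at least 10 reads were counted, the shares were 0.215% for Ptbp2, 10.7% for Ptbp3 and 25.1% for Ptbp1. Tiles may cut a gene in parts or hold no gene at all, whereas the windows were placed on whole genes.

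**Figure D2:**
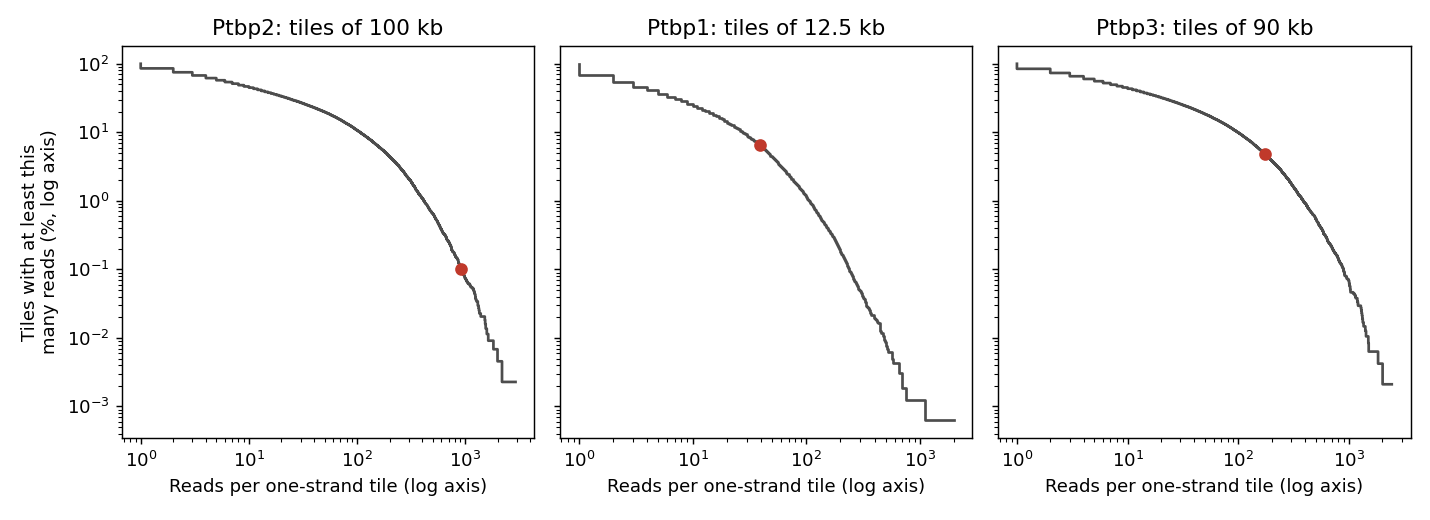
Percent of one-strand tiles (log axis) that hold at least a given number of reads (log axis), for tiles as long as the windows of Ptbp2, Ptbp1 and Ptbp3, with a red point at the gene's own count. The point lies at 0.100% for Ptbp2, 6.58% for Ptbp1 and 4.84% for Ptbp3.

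Reads on Ptbp2 began at position 119486203, 13.8 kb inside the 5′ edge of the window, and the last read ended at 119401066, a span of 85.1 kb. They covered 19.3% of the positions of this span, and the longest stretch with no read was 4163 nt. The reads were uneven along the transcript. When the window was cut into 10 equal parts from its 5′ edge, the first was empty and the next 4 held 22, 46, 65 and 32 reads. The sixth part, 50 to 60 kb from the 5′ edge, held 389 reads or 42.6%. The seventh and eighth held 148 and 172 reads, and the last 2 parts held 29 and 10. The busiest 1 kb, which began 50.9 kb from the 5′ edge, held 124 reads or 13.6% of all reads on the gene. On either side the gene was bounded by stretches of few reads, since the adjoining 100 kb held 0 reads on this strand upstream and 4 downstream.

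**Figure D3:**
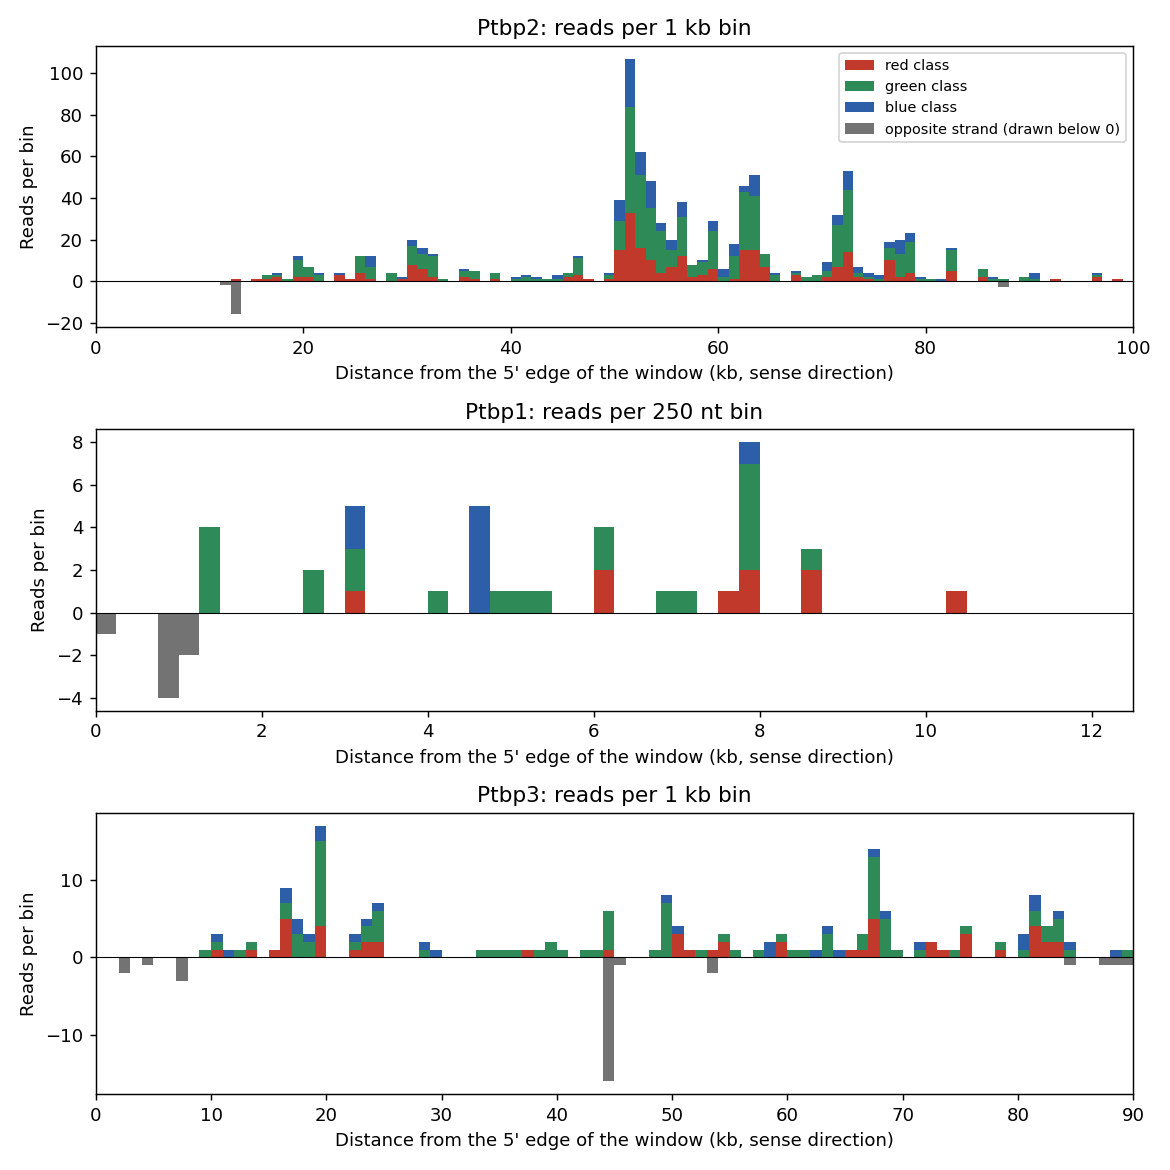
Reads per bin along the windows of Ptbp2 and Ptbp3 (bins of 1 kb) and Ptbp1 (bins of 250 nt), stacked by colour class, with distance from the 5′ edge of the window in kb in the sense direction and reads of the opposite strand drawn below 0 in grey. On Ptbp2 the high bins lie between about 50 and 80 kb, while the bins of Ptbp1 hold few reads throughout and those of Ptbp3 are low and spread over 79.4 kb of its window.

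Reads that overlapped on a strand were merged into runs, and the position of a run with the most reads is its summit. A run counted as a cluster when its summit had 10 or more reads and each of the 3 classes was present. Ptbp2 held 13 clusters, with widths of 80 to 310 nt and a median of 146 nt. At least 1 cluster was present in 7.26% of the tiles of 100 kb, and at least 13 in 0.0752%, the Ptbp2 window among them. The clusters contained 296 of the 913 reads, or 32.4% (95% Wilson interval 29.5 to 35.5), against 8.39% of the reads of the whole file outside the mitochondrial chromosome. A fixed depth is reached more readily where reads are dense, so this share and the number of clusters depend on the number of reads per kb. By class the share was 34.7% in red, 32.2% in green and 29.9% in blue. With a class left out, both remaining classes were required. The number of clusters was lowest without the deepest class, as 1 was found without green, 10 without red and 12 without blue. The 10 and the 12 each include a run that lacked the class left out and so is not among the 13.

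All 13 lay in 1 group when clusters up to 10 kb apart were joined. This group spanned 25.6 kb at chr3:119427477-119453062 and held 638 reads, 69.9% of those on the gene (66.8 to 72.8), with 0 reads on the opposite strand. In the file as a whole 8.16% of clusters lay in groups of 10 or more, and 21 of the 4011 groups and single clusters held at least 13. Read density in the stretch was 24.9 per kb, against 3.70 per kb in the rest of the window. The bounds of the stretch were set by the clusters, so a higher density inside it follows from that choice and is given as a description only. By class the RPKM was 14.0 inside and 1.93 outside in red, 14.1 and 2.05 in green, and 16.4 and 2.81 in blue. With a joining distance of 5 kb, chosen after the data were seen, the group fell into sets of 7, 3 and 3 clusters.

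The first of these sets lay at chr3:119444937-119453062, spanned 8.13 kb and held 314 reads, of which 87 were red, 161 green and 66 blue. The middle set, at chr3:119436020-119437299, was 1.28 kb long with 76 reads, 27 red, 36 green and 13 blue. The set nearest the 3′ end, at chr3:119427477-119428742, was 1.27 kb long with 71 reads, 20 red, 43 green and 8 blue. Since a cluster had to hold all 3 classes, their presence in each set follows from the definition. The first set contained 4 of the 5 highest summits. Exons and introns were not assigned, because no mm9 annotation was used here.

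**Figure D4:**
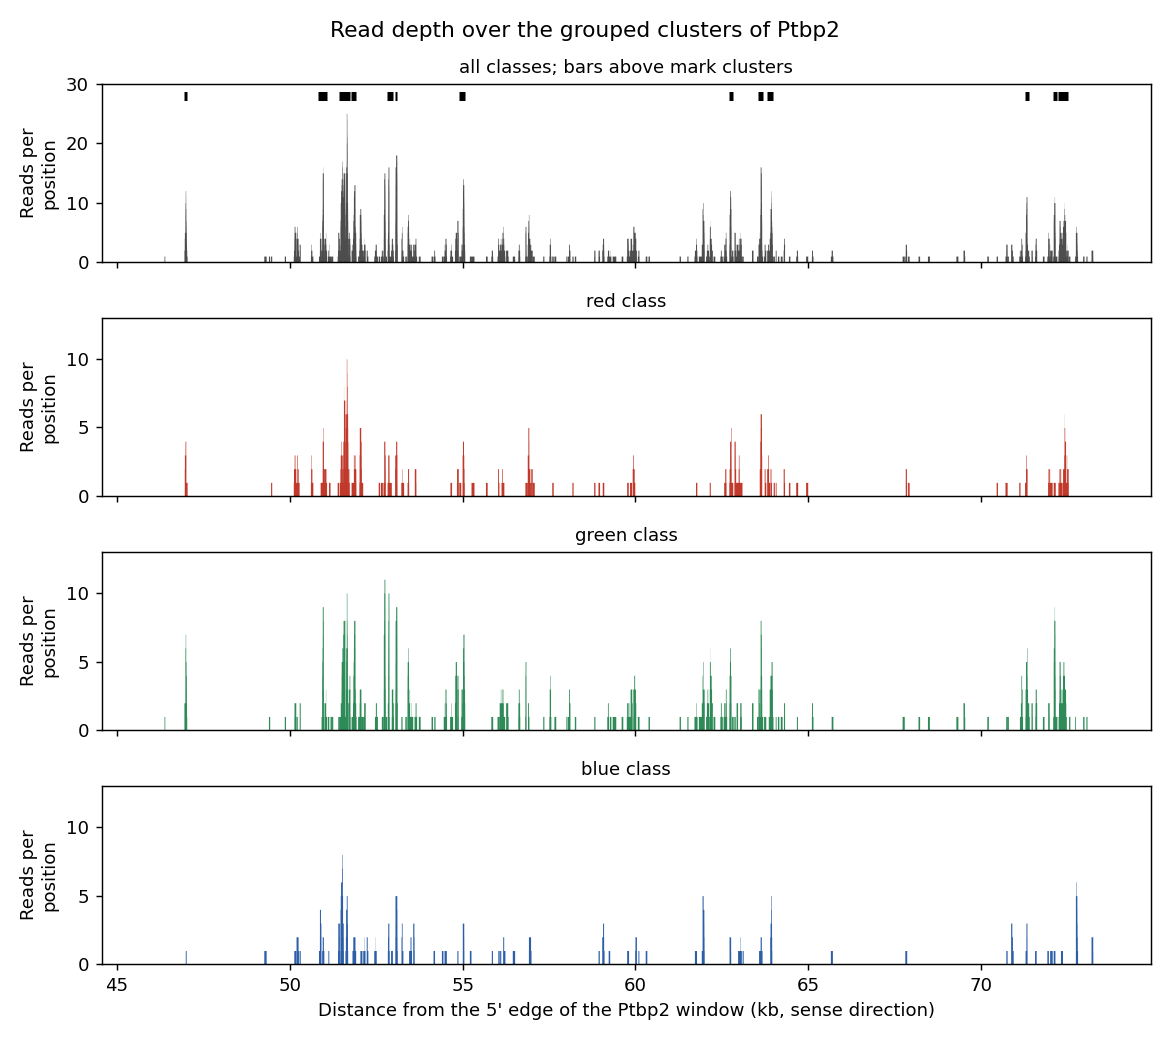
Read depth per position along the 25.6 kb of Ptbp2 that hold its clusters, with distance from the 5′ edge of the window in kb, for all classes together (clusters marked by black bars above) and for the red, green and blue class. The black bars fall into sets of 7, 3 and 3 clusters, and each cluster holds reads of all 3 classes by definition.

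The highest summit on Ptbp2 had 25 reads at position 119448358, 51.6 kb from the 5′ edge, in a cluster of 73 reads at chr3:119448253-119448562. These were 25 red, 32 green and 16 blue reads, with 37 different 5′ ends and 49 different 3′ ends. At the summit 10 red, 10 green and 5 blue reads overlapped. The green class reached its highest depth, 10 reads, at the same place as the red class. The blue class was highest, at 8 reads, 132 nt further upstream, against 5 blue reads at the summit, a difference of few reads. In the whole file 10.2% of the 6509 clusters had a summit of at least 25 reads.

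The second highest summit lay in a narrower cluster, of 80 against 310 nt, and reads of all 3 classes overlapped at it. It had 18 reads at position 119446921 in a cluster of 19 reads at chr3:119446888-119446967. The reads were 4 red, 10 green and 5 blue, with depths of 4, 9 and 5 at the summit, and they had 12 different 5′ ends. Their median length was 57 nt. Summits of 16 reads followed at 119449036, with 26 reads in the cluster, at 119447145, with 21 reads, and at 119436379, with 20 reads. The other 8 clusters had summits of 10 to 14 reads and held 12 to 30 reads each. Some of these 8 held a class by 1 read only. The cluster at chr3:119452970-119453062 had 1 blue read, and that at chr3:119427808-119427928 had 1 red and 1 blue read. The cluster at chr3:119427477-119427777 had 1 blue read among 30, with 0 blue at its summit. Within a class alone, 1 run in red, 3 in green and 0 in blue reached 10 reads at the summit. A further 2 runs reached the depth but lacked a class, 1 with a summit of 15 reads from 4 red and 11 green reads, and 1 with a summit of 10 from 5 green and 5 blue reads.

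No start, end and strand was listed more than once in the file, between classes as well as within them, so reads with the same ends in several libraries could be counted in 1 class only. Reads of 1 class that share a 5′ end may still be copies of 1 molecule. When each class kept 1 read per 5′ end, 8 of the 13 clusters on Ptbp2 still met the definition, and the highest summit went from 25 to 16 reads. With 1 read kept per 3′ end after that, 4 clusters met it and the summit was 15 reads. Of the 5 highest summits, the other 4 went from 16 to 18 reads to 11 to 15 in the first step and to 8 to 11 in the second. The part of copies in these heights was not tested.

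Ptbp1 held no cluster, and at least 1 was present in 2.83% of the tiles of 12.5 kb. Its 39 reads formed 16 runs over 8.93 kb, from 79317412 to 79326338, and covered 11.3% of the positions of that span. The highest runs had 5 reads at the summit. One, at chr10:79320708-79320781, had 6 reads, 5 of them blue reads with a shared 5′ end, and its summit was 2 when each class kept 1 read per 5′ end. The other, at chr10:79319008-79319104, had 1 red, 2 green and 2 blue reads and was the only run of Ptbp1 with all 3 classes. The busiest 1 kb of the gene, 7.61 kb from the 5′ edge, held 11 reads, or 28.2%.

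Ptbp3 reads were spread thinly over 79.4 kb, from 59560344 to 59480940. They formed 106 runs, 69 of which were single reads, so 39.7% of the reads on the gene overlapped no other read, against 20.5% on Ptbp1 and 12.7% on Ptbp2. These shares depend on the number of reads per kb. The 10 equal parts of the window held 0 to 35 reads, with 35 in the third and 32 in the eighth, and no part held as large a share as the sixth part of Ptbp2. The gene had 1 cluster, at chr4:59550493-59550579, and at least 1 was present in 6.84% of the tiles of 90 kb. It had 10 reads, 2 red, 6 green and 2 blue, all of which overlapped at the summit, but 6 of them shared 1 5′ end and 3 different 5′ ends were seen. Its summit was 3 when each class kept 1 read per 5′ end. Since all 3 classes overlapped at a summit of exactly 10 reads, leaving out any class put it below the minimum by construction. The next highest runs of Ptbp3 had summits of 4 reads.

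**Figure D5:**
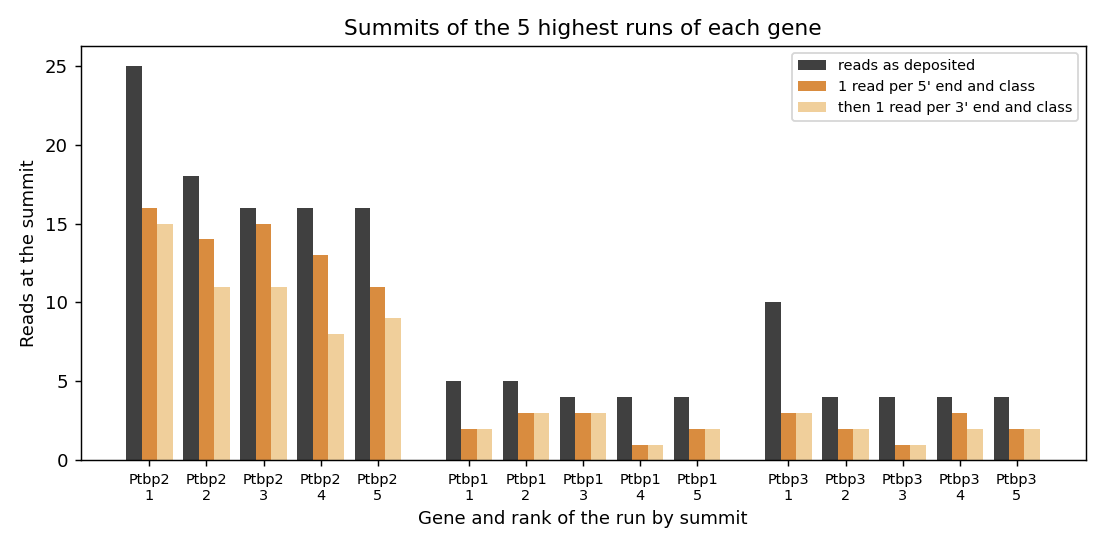
Reads at the summit of the 5 highest runs of Ptbp2, Ptbp1 and Ptbp3, as deposited (dark), with 1 read per 5′ end and class (orange) and with 1 read per 3′ end and class after that (light). The runs of Ptbp2 keep 8 to 15 reads in the last setting, and the highest run of Ptbp3 goes from 10 to 3.

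The opposite strands held few reads, and these lay at particular places. Ptbp2 had 21 reads on the plus strand, so 97.8% of the reads in its window were sense (96.6 to 98.5). Of the 21, 17 lay upstream of the first sense read, between 302 and 1347 nt away from it, and 4 lay within the sense span. Ptbp1 had 7 reads on the other strand and a sense share of 84.8% (71.8 to 92.4). All 7 lay upstream of its first sense read, between 219 and 1302 nt away, and 0 lay within the span of its 39 sense reads. The sense share within the span was therefore 99.6% for Ptbp2 (98.9 to 99.8) and 100% for Ptbp1 (91.0 to 100). In the GRCm38 gene table Ptbp1 overlaps E130317F20Rik, a long noncoding RNA gene, at its 5′ end and Plppr3, a gene of the other strand, at its 3′ end, as well as the microRNA gene Mir6910, and which of the 7 reads belong to a neighbour was not tested. Ptbp2 and Ptbp3 overlap no gene in that table.

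Ptbp3 differed from both in that its opposite-strand reads lay mainly inside the gene. There were 29 of them, for a sense share of 85.7% (80.2 to 89.9), and 22 lay within the sense span. Of these, 16 were stacked in 78 nt on the plus strand at chr4:59525223-59525300, and all 16 overlapped at the summit. The stack thus met the definition of a cluster, with 9 red, 6 green and 1 blue read and 11 different 5′ ends, and its summit was 14 when each class kept 1 read per 5′ end. No sense read of Ptbp3 overlapped it. The highest summit on the strand opposite to Ptbp3 was thus above the highest on its own strand, at 16 against 10 reads. By class, the sense share of Ptbp3 was 74.6% in red, 90.3% in green and 93.9% in blue.

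Class shares were compared with those of the whole file. On Ptbp2 27.2% of reads were red, 53.5% green and 19.4% blue, and the blue share (17.0 to 22.1) lay above the 16.3% that blue made of all reads. On Ptbp3 the shares were 28.7%, 53.4% and 17.8%, and on Ptbp1 23.1%, 56.4% and 20.5%, with intervals that included the share of the class in the file. These intervals cover counting error only, and reads with the same ends in several libraries could be counted in 1 class only. High and low bins along Ptbp2 were largely shared by the classes. Counts were taken over its 100 bins of 1 kb on the log2(reads + 1) scale. Red and green had a Pearson's r of 0.84 and a Spearman's rho of 0.75, green and blue 0.79 and 0.72, and red and blue 0.74 and 0.63. For the 90 bins of Ptbp3, Pearson's r was 0.42, 0.46 and 0.33 for the same pairs. These correlations describe bins of 1 gene, which share its length and boundaries and are not independent, and sparse counts lower them.

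The median read of the whole file was 46 nt long. The median was 46 nt on Ptbp2 (interquartile range 39 to 55), 43 nt on Ptbp3 (36 to 53) and 51 nt on Ptbp1 (43 to 56). Reads that shared their 5′ end with another read of the same class made 31.9% on Ptbp2 (28.9 to 35.0), 33.3% on Ptbp3 (26.8 to 40.6) and 53.8% on Ptbp1 (38.6 to 68.4), against 25.4% in the file. The share on Ptbp1 rests on 21 reads. Separate molecules that happen to begin at 1 position are included in these shares.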

How the data were processed

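HITS-CLIP libraries of 3 animals were deposited as 1 list of mapped reads, each with its position, a score and a colour. Per the labels' protocols, each read begins with linker bases. The authors mapped with Bowtie to mm9, per the submitters' processing notes. The sources used here do not state settings, multiple hits or removal of copies. The deposited score was 0 on all 1727697 lines and was not used. A start, end and strand listed earlier recurred on 0 lines, within or between colours, so a read placed identically in several libraries could appear under 1 colour only; how such reads were treated is not given in the sources used here. Spliced reads are not represented.

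Reads wholly inside a window were counted by strand and colour class. Runs, clusters and tiles were computed with Python 3.11.15, numpy 2.4.6, pandas 2.3.3 and scipy 1.17.1. Tiles started at the first position of each chromosome and took reads by their midpoint. Intervals are 95% Poisson (counts), Wilson (shares) or exact conditional (ratios). No comparison between groups exists, so no p-value was computed.

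The members, windows and lists were chosen with earlier results of these data known. The 3 genes are always named. Of each gene up to 5 clusters, the highest by summit, are described, or its highest run. Alternatives were other summit, class and tile settings, 1 read per end (the longest is kept) and each class left out. The planned sequence motifs, protein identities, pathway genes and testis cell markers were not analysed here, since no mm9 sequence or annotation and no protein table was used, so the labelled tissue was not checked against markers. Positions are counted from 1.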

Additional observations from a re-analysis of the deposited data

How the results depend on the processing

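The alternatives that restrict the opposite strand or the length to the span of the sense reads, and the joining distance of 5 kb, were chosen after seeing the data. Of 109 alternative values over all results, 76 stayed within the interval of the reported value (for counts of clusters, within 1.5 times) and 33 moved beyond it. The order of reads per kb, Ptbp2 above Ptbp1 above Ptbp3, was the same with each class left out.

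Ptbp2, with 13 clusters, had 32 at a minimum summit of 5 reads and 1 at a minimum of 20. It had 8 when 1 read was kept per 5′ end and 4 when the same was then done for 3′ ends. With a class left out, both others were required, so a run lacking the left-out class could count. Ptbp2 then had 1 to 12 clusters, the lowest without green. Its largest group was 7 clusters with joining up to 5 kb. Ptbp1 had 1 cluster at the minimum of 5 reads. Ptbp3, with 1 cluster, had 0 at the minimum of 20 reads, in both settings that keep 1 read per end, and with any class left out. Fewer reads admit fewer clusters by construction.

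The sense span in place of the window gave an RPKM of 6.21 for Ptbp2 (from 5.28) and 2.53 for Ptbp1 (from 1.81), and sense shares of 99.6% and 100%. The sense share of Ptbp3 ran from 81.0% to 91.2% with a class left out, the highest without red. Counting only tiles with at least 10 reads, 0.215% reached Ptbp2, 25.1% Ptbp1 and 10.7% Ptbp3. With 1 read per 5′ end it was 9.30% for Ptbp1 and 5.27% for Ptbp3, with a class left out 6.85% to 9.36% and 5.23% to 5.29%. Against the busiest 10 kb tile of the window it was 0.0166% for Ptbp2 and 8.57% for Ptbp1. That tile was picked by its reads, and a longer window offers more tiles to pick from. The share is therefore low partly by choice and cannot be compared between genes. The busiest 500 nt held 10.4% and the busiest 2 kb 20.8% of Ptbp2 reads. Counting only tiles with at least 10 reads raises each share by construction, since the tiles that reach the gene's count stay the same. The cause of the other shifts in tile shares was not tested. No paired analysis was possible because all samples belong to 1 group. Depth limits Ptbp1 most, at 39 reads.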

Other observations

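The stretches beside the windows differed between the genes. The 12.5 kb upstream of the Ptbp1 window held 70 reads on the strand opposite to Ptbp1 and 0 on its own strand, and the 12.5 kb downstream held 0 reads on either strand. The 90 kb upstream of the Ptbp3 window held 156 reads on the opposite strand and 8 on its own, and the 90 kb downstream held 7 and 11. The 100 kb upstream of the Ptbp2 window held 5 reads on the opposite strand and 0 on its own. These counts are values of neighbouring sequence, looked at after the data were seen, and no gene was assigned to them in mm9.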
